A study of Mus musculus with 8 samples.

Results

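The genes described are the subunits of the proteasome, its assembly chaperones and regulators, and the subunits of the COP9 signalosome. They were chosen by symbol, as every probe set annotated to 1 gene whose name starts with Psma to Psmg or with Cops followed by a number. The inducible genes Psmb8, Psmb9, Psmb10, Psme1 and Psme2 were left out. This gave 54 genes with 117 probe sets, of 18193 named genes with 34945 probe sets. Among them were 8 alpha and 8 beta subunits of the 20S core, 6 ATPases and 11 other subunits of the 19S cap, 7 assembly chaperones, 3 activators or inhibitors, 9 COP9 subunits, and 2 genes that match the name pattern but encode no subunit (Psmc3ip and Psme3ip1).

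The samples were LB-22 cells, an immortalized mouse line derived from embryonic kidney. Cells of 1 group received an siRNA against Wt1, the gene of a zinc finger transcription factor of kidney and mesothelium, and cells of the other received a scrambled control siRNA, and the comparison asks which transcripts differ once Wt1 is lowered. Each group had 4 samples, each hybridized to 1 Affymetrix Mouse430_2 array. In both groups 25 pmol of siRNA was given for 6 h, followed by 48 h of growth, and both groups had been expanded at 33 °C with 10 U/ml interferon gamma and were moved to 37 °C without it at transfection. The model is therefore a single cell line, and all its cells had been exposed to interferon gamma, which induces the genes left out above.

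The proteasome degrades proteins that carry ubiquitin chains. Its barrel-shaped core is built of outer alpha rings, which gate the entry, and inner beta rings, which hold the proteolytic sites. A cap of ATPases and scaffold subunits recognises, deubiquitinates and unfolds the substrate. The COP9 signalosome resembles the lid of that cap in architecture, and it removes the ubiquitin-like protein NEDD8 from cullin-RING ubiquitin ligases.

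The stretches of DNA just upstream of 4 of these genes are shown because 2 of the genes rose and 2 fell, and matches to the same motif core lie upstream of both kinds. They come from RefSeq's mouse annotation on GRCm38.p6, and each is the 250 bases before an annotated start, written 5′ to 3′ on the strand of the gene. Capitals mark every whole match to CGGAAG on either strand, the core recognised by ETS factors, and to TGACNNNGC on either strand, the antioxidant response element core. Psmd13 and Psmb5 rose after Wt1 siRNA, and Psmg1 and Cops7a fell. The positions are chr7:140882144-140882393 (plus strand) for Psmd13, chr14:54617996-54618245 (minus strand) for Psmb5, chr16:95990961-95991210 (minus strand) for Psmg1 and chr6:124965513-124965762 (minus strand) for Cops7a, for which this is 1 of 2 annotated windows.
Psmd13: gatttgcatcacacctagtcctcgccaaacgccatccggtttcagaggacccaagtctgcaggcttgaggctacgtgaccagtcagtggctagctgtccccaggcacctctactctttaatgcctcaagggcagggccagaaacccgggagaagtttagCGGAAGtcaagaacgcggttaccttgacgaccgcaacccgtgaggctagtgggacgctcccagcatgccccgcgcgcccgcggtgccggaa
Psmb5: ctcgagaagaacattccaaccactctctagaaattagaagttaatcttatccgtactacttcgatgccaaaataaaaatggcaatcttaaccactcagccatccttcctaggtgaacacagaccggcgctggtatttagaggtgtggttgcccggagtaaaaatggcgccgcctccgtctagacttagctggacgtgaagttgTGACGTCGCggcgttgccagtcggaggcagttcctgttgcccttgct
Psmg1: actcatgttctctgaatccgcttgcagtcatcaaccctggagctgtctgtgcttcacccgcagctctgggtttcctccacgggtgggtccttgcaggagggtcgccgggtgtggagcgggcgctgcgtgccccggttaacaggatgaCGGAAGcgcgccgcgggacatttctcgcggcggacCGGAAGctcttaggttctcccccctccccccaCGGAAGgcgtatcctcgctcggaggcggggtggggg
Cops7a: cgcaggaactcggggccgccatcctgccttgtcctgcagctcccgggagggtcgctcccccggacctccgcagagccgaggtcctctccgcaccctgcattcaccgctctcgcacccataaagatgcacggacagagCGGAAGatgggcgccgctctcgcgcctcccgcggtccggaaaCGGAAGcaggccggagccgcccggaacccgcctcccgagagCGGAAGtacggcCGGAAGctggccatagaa
The Psmd13 stretch holds 1 match to CGGAAG and another begins at its end and runs past the start, the Psmg1 stretch holds 3 and the Cops7a stretch holds 4. The Psmb5 stretch holds none of these and 1 match to TGACNNNGC. The other Cops7a window, not printed, likewise holds no CGGAAG and 1 TGACNNNGC in the 250 bases before its start.

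The subunits went in both directions, and by little. Values are the deposited signals, a linear intensity, of the brightest probe set of each gene, and differences are on the log2 scale, Wt1 siRNA minus control siRNA, with their SE after ±. Signals are listed for arrays 1 to 4 of a group in order, and a percent of control compares geometric means. Of 52 tested genes 12 rose, 8 fell and 32 did not pass (limma, adjusted p threshold of 0.05). Over all 9096 tested genes 37.3% were called, 18.8% higher and 18.5% lower, so the members' 20 of 52 (38.5%) is near the background. The groups of 4 arrays did not overlap for 20 members, also 38.5%, against 36.3% of all tested genes. The rises ran from 1.17 to 1.38 times the control level, and the falls left 71.5% to 86.4% of it. The largest difference of a called member was 0.485 on the log2 scale, and 16.8% of all tested genes had a larger one. No tested member differed by 1 or more on the log2 scale, while 230 of the tested genes did (2.53%). The median absolute difference was 0.20 for the members and 0.21 for all tested genes. In RNA of a whole culture a lower signal from fewer cells of a type and one from less RNA per cell cannot be told apart.

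The proteasome and the COP9 signalosome lay on different sides of 0. The 43 tested genes counted here as proteasome genes are all those with Psm names, so they include Psmc3ip and Psme3ip1, which encode no subunit. Of these 43 genes 12 rose and 5 fell, with a median log2 difference of 0.11. Of the 9 COP9 genes none rose and 3 fell, with a median of -0.23, and the median of all tested genes was 0.02. At an unadjusted p under 0.05 by limma, 0 COP9 genes were higher and 4 were lower, and an ordinary two-sample test with adjustment called 0 higher and 3 lower. The difference between the complexes was not tested.

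The scaling of the arrays changes how many members count as higher or lower. Centring each array on its median signal moved the median difference of all tested genes by 0.108, from 0.02 to 0.12. All-gene calls then went from 1708 higher and 1687 lower to 1584 higher and 785 lower. Among the members 10 were then higher and 0 lower by limma, against 2 lower at an unadjusted p under 0.05 and 1 lower by the ordinary two-sample test. Of the 12 rises 9 were kept, and Psmb5, Psmd2 and Psmd11 were not, with adjusted p of 0.0736, 0.0575 and 0.0579, although their differences were then larger at 0.33, 0.37 and 0.36. None of the 8 falls was kept, although each of these 8 genes still had a difference below 0. The members' median was 0.06 as deposited, 0.17 with centring and 0.01 with quantile normalization.

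**Figure D1:**
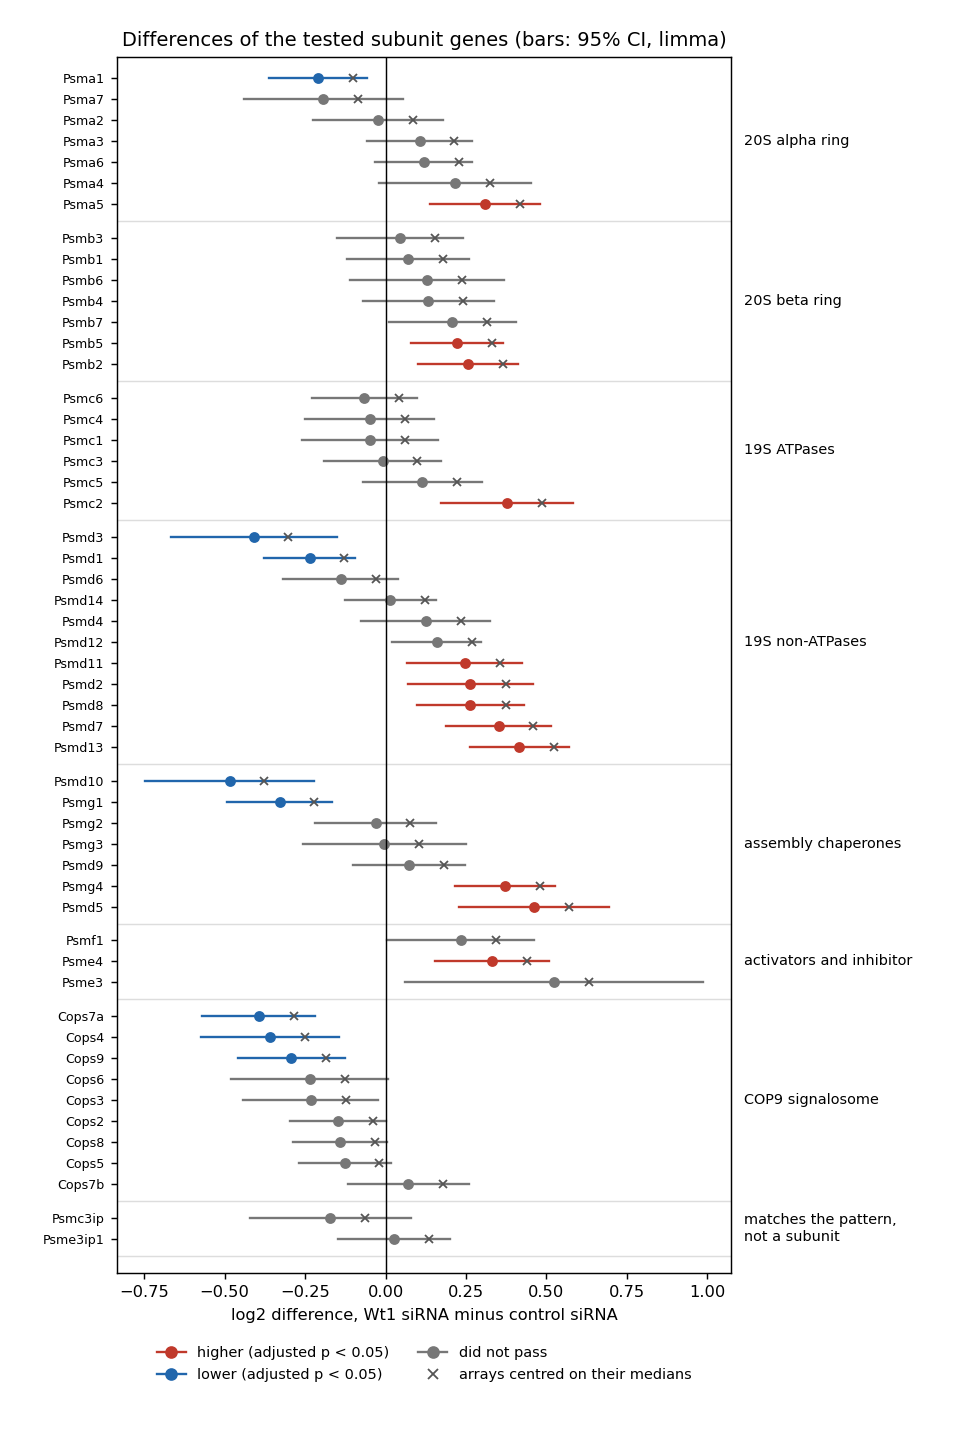
Log2 difference (Wt1 siRNA minus control siRNA) of the 52 tested genes by subcomplex, with bars for the 95% confidence interval of the limma fit, colour for the call and a cross for the difference after each array was centred on its median. The 12 rises lie among proteasome genes, 8 of 9 COP9 genes lie below 0, and the crosses lie to the right of every point.

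Before the subunits, the arrays themselves were compared. Wt1 signal was at 20.5% of control after its siRNA, a log2 difference of -2.28 ± 0.11 (limma adjusted p = 5.91e-08). Log2 signals correlated at 0.977 to 0.991 within groups and at 0.94 to 0.96 between them. Trimmed means were equal at 1500.01 on every array, and the median signals were 279.1 to 346.1. As a sign of RNA quality, the ratio of 3′ to 5′ control probe sets for Gapdh was 0.793 to 0.913 with control siRNA and 0.81 to 0.891 with Wt1 siRNA. Of the listed markers of kidney mesenchyme and stroma 5 of 7 were above background. Their summed signals were 92439 to 106404 with control siRNA and 87736 to 125910 with Wt1 siRNA. This list and its sum include Wt1, the target of the siRNA. Of its other members, Col1a1 fell to 63.6% of control (limma adjusted p = 0.000212) and Osr1 rose to 168% (limma adjusted p = 0.00502). Vim, at 120%, did not pass (limma adjusted p = 0.116). Markers of mesothelium moved with the groups, 4 of 6 lower and 1 higher (limma). All 6 listed markers were above background, their summed signal was 57077 to 64175 with control siRNA and 34225 to 38320 with Wt1 siRNA, none was at 0, and their part in the subunit results was not tested. Leukocyte markers summed to 2614 to 3249 and 3289 to 3477, with 3 of 5 above background and none at 0, where Cd68 rose to 198% of control (limma adjusted p = 8.66e-06) and Csf1r fell to 59.2% (limma adjusted p = 0.00125). Summed signals of podocyte markers were 2767 to 5862 and 1306 to 1837, with 2 of 3 above background, those of epithelial markers were 1947 to 4820 and 1277 to 1773, with 3 of 4, and those of endothelial markers were 2072 to 2890 and 1697 to 2043, with 1 of 5. Epcam, an epithelial marker, fell to 23.3% of control (limma adjusted p = 0.00027). Another epithelial marker, Cdh1, went the other way, at 194% of control with its groups apart, and was too dim to test. Krt7 lay at 102% and Cdh16 at 111%, both also too dim to test. No marker of these 4 lists was at 0, and the part of the lists in the subunit results was not tested either.

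The alpha subunits form the outer rings of the 20S core. Of 7 tested alpha subunits 1 rose, 1 fell and 5 did not pass, and the median difference was 0.11. Psma5, an alpha subunit, gave signals of 14218.8, 16204.2, 15602.6 and 15514.1 with control siRNA and 19128.6, 19758.6, 20764.1 and 16708.3 with Wt1 siRNA. Every Wt1 siRNA array was above every control array. The level was 124% of control (0.31 ± 0.079, limma adjusted p = 0.00805). Psma1, another alpha subunit, gave signals of 13385.4, 13711.5, 14097.2 and 13154.3 with control siRNA and 12605.7, 11712.3, 12071.5 and 10659.8 with Wt1 siRNA. All 4 Wt1 siRNA arrays were below all 4 control arrays, and array 4 was the lowest. The level was 86.4% of control (-0.21 ± 0.070, limma adjusted p = 0.0302). This call was lost without control array 2 (adjusted p = 0.0697), control array 4 (0.0525), Wt1 siRNA array 2 (0.0702) or Wt1 siRNA array 4 (0.0594). The 5 alpha subunits that did not pass ranged from -0.19 ± 0.12 for Psma7 to 0.22 ± 0.11 for Psma4, with Psma2 at -0.023 ± 0.094, Psma3 at 0.11 ± 0.076 and Psma6 at 0.12 ± 0.070 between them. Without Wt1 siRNA array 2, Psma4 passed with an adjusted p of 0.0376. Psma8, the testis form of an alpha subunit, was too dim to test. Its signals were 12.8, 142.1, 176.5 and 54.6 with control siRNA and 162.5, 101.8, 90.3 and 27.1 with Wt1 siRNA, all below the highest of the background controls (27 probe sets for Bacillus genes, up to 227.2).

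All 7 tested beta subunits had a difference above 0, as had 52.4% of all tested genes. Only Psmb2 and Psmb5 passed, and the median was 0.13. None fell by limma, also at an unadjusted p under 0.05, and none by the ordinary two-sample test. With quantile normalization 5 of the 7 differences were above 0 and 2 below, those of Psmb1 and Psmb3, and the median was 0.032. Psmb5, which carries the chymotrypsin-like site, had signals of 16482.8, 18568.5, 18568.6 and 17837.6 with control siRNA and 20737.8, 20596.7, 20818.1 and 21168.9 with Wt1 siRNA. The Wt1 siRNA arrays lay within a narrow range above every control array. The level was 117% of control (0.22 ± 0.066, limma adjusted p = 0.0176). For Psmb2, a beta subunit without proteolytic activity, the signals were 18560.4, 21008.7, 20969.8 and 19636.9 with control siRNA and 22937.7, 22759, 25346.4 and 24662.3 with Wt1 siRNA. Again the groups did not overlap, and control array 1 was the lowest. The level was 119% of control (0.26 ± 0.072, limma adjusted p = 0.0132). Psmb6, which carries the caspase-like site, did not pass (0.13 ± 0.11, limma adjusted p = 0.381), with a 95% interval of -0.11 to 0.37. Psmb7, which carries the trypsin-like site, did not pass either (0.21 ± 0.092, limma adjusted p = 0.0907), with an interval of 0.010 to 0.41. Psmb1, Psmb3 and Psmb4 lay between 0.045 ± 0.091 and 0.13 ± 0.10. Psmb11, the beta subunit of thymic epithelium, was too dim to test, with signals of 45.6, 35.3, 22.6 and 261 with control siRNA and 28.7, 25.8, 71.7 and 96.9 with Wt1 siRNA. Only control array 4 exceeded the highest background control.

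The 6 ATPases form the ring that unfolds substrates, and 1 of them passed. Psmc2 had signals of 19710.4, 23608.9, 27715 and 22651.6 with control siRNA and 29690.3, 28196.3, 30985.9 and 32020.6 with Wt1 siRNA. Wt1 siRNA arrays were all above the control arrays, whose own values spread from array 1 to the higher array 3. The level was 130% of control (0.38 ± 0.10, limma adjusted p = 0.00743). The other 5 ATPases lay close to 0, from -0.066 ± 0.076 for Psmc6 to 0.11 ± 0.086 for Psmc5, with a median over the 6 of -0.029. None fell by limma or by the ordinary two-sample test, and none had an unadjusted p under 0.05 with a lower signal. With median centring all 6 differences were above 0, so the sign of Psmc1, Psmc3, Psmc4 and Psmc6 depends on the scaling. These values are of the brightest probe sets. For Psmc6 the result also depends on the probe set, since dimmer ones fell (-0.50 and -0.83, limma adjusted p = 0.00155 and 0.000739).

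Of the other cap subunits, the group with the most genes, 11 were tested. Of these 5 rose, 2 fell and 4 did not pass, and the median was 0.16. Psmd13, a scaffold subunit of the lid, gave signals of 4695.5, 4867.6, 5344.8 and 4553.5 with control siRNA and 6433, 6362, 6628.6 and 6493.5 with Wt1 siRNA. The 4 Wt1 siRNA arrays lay close together and above all control arrays. The level was 133% of control (0.42 ± 0.072, limma adjusted p = 0.000574), the smallest adjusted p among the members. Psmd7, the lid subunit that pairs with the deubiquitinase Psmd14, gave signals of 7176, 7990.6, 6783.6 and 6830.5 with control siRNA and 8817.9, 9080.7, 9975.1 and 8827.9 with Wt1 siRNA. The groups were apart. The level was 128% of control (0.35 ± 0.076, limma adjusted p = 0.00264). Psmd14 itself lay at 0.015 ± 0.066 (limma adjusted p = 0.878), with a 95% interval of -0.13 to 0.16.

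Psmd8, a lid subunit, had signals of 16526.2, 17507.4, 15306.3 and 19053.7 with control siRNA and 20360.2, 19605.3, 21673.6 and 20298 with Wt1 siRNA. The lowest Wt1 siRNA array was just above the highest control array. The level was 120% of control (0.26 ± 0.078, limma adjusted p = 0.0164), and the call was lost without Wt1 siRNA array 3 (adjusted p = 0.0522). Psmd11, a lid scaffold subunit, had signals of 24066.9, 28873.1, 30735.2 and 28861.6 with control siRNA and 33076.3, 31771.6, 34223.6 and 33928.3 with Wt1 siRNA. Control array 1 was well below the other control arrays, and the groups did not overlap. The level was 119% of control (0.25 ± 0.083, limma adjusted p = 0.0314). It did not pass without control array 1 (adjusted p = 0.061), 2 (0.0535) or 4 (0.0585), or without Wt1 siRNA array 1 (0.0678) or 3 (0.0797). Psmd2, a large base subunit that docks ubiquitin receptors, had signals of 24295.4, 23604.1, 31323.5 and 24170.0 with control siRNA and 29844.7, 31368.8, 31631.3 and 30514.1 with Wt1 siRNA. Control array 3 was as high as the Wt1 siRNA arrays, so the groups overlapped. The level was 120% of control (0.26 ± 0.091, limma adjusted p = 0.0345), and no call was made without control array 1 (adjusted p = 0.07), 2 (0.106) or 4 (0.104), or without Wt1 siRNA array 1 (0.0577), 2 (0.0791) or 3 (0.0803).

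Psmd1 and Psmd3 went the other way. Psmd1, the second large base subunit, had signals of 12110.5, 12808.8, 12416.3 and 11647.4 with control siRNA and 11061.6, 9948.4, 10399.8 and 10178.1 with Wt1 siRNA. All Wt1 siRNA arrays were below all control arrays. The level was 84.9% of control (-0.24 ± 0.066, limma adjusted p = 0.0127). Psmd3, a lid scaffold subunit, had signals of 9687.7, 7492.1, 10737.2 and 9192 with control siRNA and 6738.4, 6578.7, 6031.1 and 8590.6 with Wt1 siRNA. Wt1 siRNA array 4 and control array 2 crossed, so the groups overlapped. The level was 75.2% of control (-0.41 ± 0.12, limma adjusted p = 0.0159), with an adjusted p of 0.0501 without Wt1 siRNA array 3. Psmd12, another lid scaffold subunit, did not pass although its groups were apart, with signals of 12642.5, 13281.2, 13638.2 and 12759.5 with control siRNA and 14907.8, 14462.8, 15109.1 and 13952.8 with Wt1 siRNA (0.16 ± 0.064, limma adjusted p = 0.066). It passed without control array 3 (adjusted p = 0.0392) or Wt1 siRNA array 4 (0.0385). The ubiquitin receptor Psmd4 (0.12 ± 0.093) and the lid subunit Psmd6 (-0.14 ± 0.083) did not pass, with limma adjusted p of 0.307 and 0.204.

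**Figure D2:**
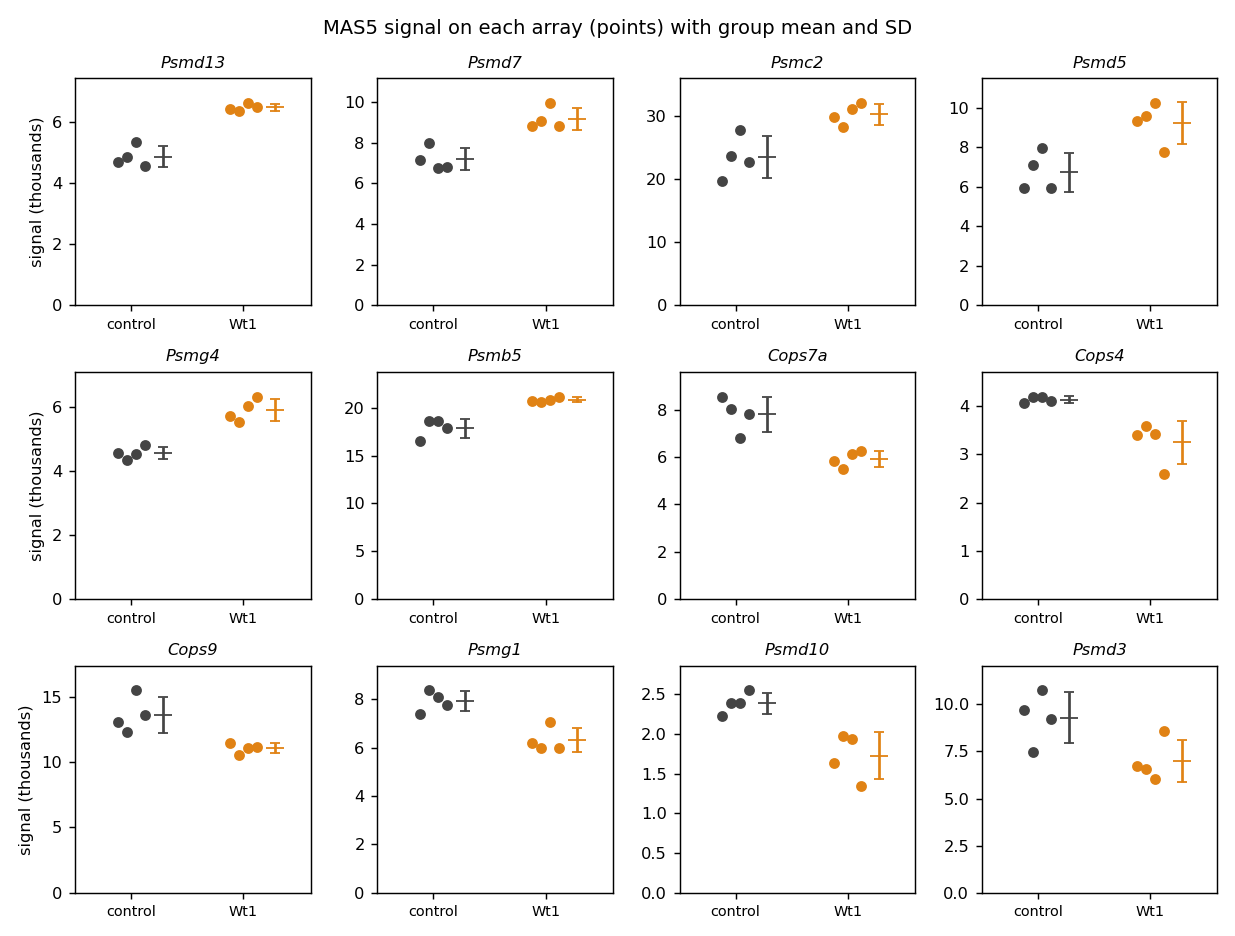
Deposited signal on each of the 8 arrays for 12 members that passed the test, with a point for each array, a line for the group mean and bars for the SD, each axis starting at 0. Psmd13, Psmd7, Psmc2, Psmg4 and Psmb5 are higher on every Wt1 siRNA array, Cops7a, Cops4, Cops9, Psmg1 and Psmd10 are lower on every one, and Psmd5 and Psmd3 overlap.

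The assembly chaperones, which help the core and the base form and then leave, split evenly. Of 7 tested 2 rose, 2 fell and 3 did not pass, with a median of -0.004. Psmd5, a chaperone of the base, gave signals of 5932, 7090.2, 7962.4 and 5927.1 with control siRNA and 9352.1, 9588.6, 10259.5 and 7751.2 with Wt1 siRNA. Wt1 siRNA array 4 lay below control array 3, and the groups overlapped. The level was 138% of control (0.46 ± 0.11, limma adjusted p = 0.00488). Among the called members only this call held under each of the 19 settings that changed 1 choice of the processing. Psmd5 has a single probe set, so averaging over probe sets could not change its values. The calls of Psma5, Psmc2, Psmd13, Psmd7, Psmg4 and Psme4, which have several, were each lost under that setting alone. Psmd10, also a base chaperone and known as gankyrin, gave signals of 2225.4, 2391.2, 2391.6 and 2549.8 with control siRNA and 1636.5, 1977.9, 1938.8 and 1348.5 with Wt1 siRNA. No Wt1 siRNA array reached the control arrays. The level was 71.5% of control (-0.48 ± 0.12, limma adjusted p = 0.00712). The third base chaperone, Psmd9, did not pass (0.073 ± 0.081, limma adjusted p = 0.5).

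The chaperones of the core split as well. Psmg4 gave signals of 4568.3, 4333.1, 4535.5 and 4810.7 with control siRNA and 5707.3, 5548.2, 6046.7 and 6328.8 with Wt1 siRNA. All 4 Wt1 siRNA arrays were above the control arrays. The level was 129% of control (0.37 ± 0.073, limma adjusted p = 0.00138). Psmg1 gave signals of 7399, 8364.4, 8101.5 and 7774.9 with control siRNA and 6187, 5993.3, 7044.8 and 5990.3 with Wt1 siRNA. All 4 Wt1 siRNA arrays were below the control arrays. The level was 79.6% of control (-0.33 ± 0.076, limma adjusted p = 0.00417). Psmg2, with which Psmg1 forms a dimer, lay at -0.031 ± 0.087 (limma adjusted p = 0.808), and Psmg3, the partner of Psmg4, lay at -0.004 ± 0.12 (0.985). Whether the members of a pair differed from each other was not tested.

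Of the activators and the inhibitor 1 of 3 passed, and the median was 0.33. None fell by limma at either threshold or by the ordinary two-sample test. Psme4, the large activator PA200, gave signals of 7559.3, 7401.6, 9114.9 and 8094 with control siRNA and 10208.8, 10199.8, 10789.5 and 9196.1 with Wt1 siRNA. The groups were apart, with Wt1 siRNA array 4 just above control array 3. The level was 126% of control (0.33 ± 0.082, limma adjusted p = 0.00628). Psme3, the nuclear activator PA28 gamma, gave signals of 2608.9, 1921.5, 1692 and 1865 with control siRNA and 2706.3, 2601.4, 1999.5 and 4818.1 with Wt1 siRNA. Wt1 siRNA array 4 was far above the rest and the groups overlapped. Its difference of 0.53 ± 0.21 was the largest of the tested members, and it did not pass (limma adjusted p = 0.0705). It passed without control array 1 (adjusted p = 0.0388), without Wt1 siRNA array 3 (0.0186) and with median centring (0.00526). Psmf1, the inhibitor PI31, gave signals of 2712.7, 2473, 2008.5 and 2713.5 with control siRNA and 2767.8, 3054.2, 2720.5 and 3045 with Wt1 siRNA. Its groups touched without overlapping, and it did not pass (0.23 ± 0.11, limma adjusted p = 0.0969).

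In the COP9 signalosome 3 of 9 subunits fell, where 18.5% of all tested genes did. A difference below 0 was found for 8 of 9, and for 4330 of all 9096 tested genes. Cops7a, a scaffold subunit, gave signals of 8556.5, 8039.9, 6807.9 and 7807.4 with control siRNA and 5825.9, 5493.6, 6120.3 and 6262.3 with Wt1 siRNA. All 4 Wt1 siRNA arrays were below all 4 control arrays. The level was 76.1% of control (-0.39 ± 0.082, limma adjusted p = 0.00209). Its paralogue Cops7b was the member above 0 and did not pass (0.070 ± 0.087, limma adjusted p = 0.558), with a 95% interval of -0.12 to 0.26. Cops4, another scaffold subunit, gave signals of 4055.1, 4186.2, 4199 and 4108.8 with control siRNA and 3407.6, 3582.8, 3427.2 and 2585.1 with Wt1 siRNA. Control arrays lay close together, and Wt1 siRNA array 4 was far below the other 3. The level was 78% of control (-0.36 ± 0.10, limma adjusted p = 0.0122). Cops9, the small acidic subunit, gave signals of 13036.9, 12319.8, 15485.7 and 13621.1 with control siRNA and 11476.9, 10569.9, 11082 and 11184.3 with Wt1 siRNA. The groups did not overlap. The level was 81.6% of control (-0.29 ± 0.077, limma adjusted p = 0.00922).

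The catalytic subunit Cops5, which cleaves NEDD8 from cullins, did not pass (-0.13 ± 0.066, limma adjusted p = 0.148), and its 95% interval was -0.27 to 0.016. Its partner Cops6 did not pass either (-0.24 ± 0.11, limma adjusted p = 0.118). For Cops8 the signals were 5396.5, 5133.6, 5340.8 and 5256.2 with control siRNA and 4860.3, 4790.5, 5012.9 and 4507.5 with Wt1 siRNA. Its groups were apart and it did not pass (-0.14 ± 0.068, limma adjusted p = 0.119). Cops3 had signals of 10642.9, 12632.2, 14457.1 and 12556.5 with control siRNA and 11182, 11094.8, 11235.8 and 9187 with Wt1 siRNA. Control array 1 lay among the Wt1 siRNA arrays. It did not pass (-0.23 ± 0.10, limma adjusted p = 0.075), and it passed without control array 1 (0.0193). Cops2 lay at -0.15 ± 0.069 (limma adjusted p = 0.108). Of the members that encode no subunit, the meiotic recombination factor Psmc3ip (-0.17 ± 0.12) and Psme3ip1, whose product binds PA28 gamma (0.027 ± 0.080), did not pass, with limma adjusted p of 0.262 and 0.824. After median centring none of the 9 COP9 genes passed by limma, 1 was lower at an unadjusted p under 0.05, and the ordinary two-sample test called 1 lower. With quantile normalization 5 were lower, Cops3 and Cops6 being added.

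Averaged over their genes, the complexes differed in how the arrays lined up. The COP9 mean deviated from its mean over all 8 arrays by 0.056, 0.125, 0.115 and 0.117 on control arrays 1 to 4 and by -0.079, -0.079, -0.05 and -0.205 on Wt1 siRNA arrays 1 to 4. All 4 control arrays were above all 4 Wt1 siRNA arrays, and Wt1 siRNA array 4 was the lowest. The mean of the 43 tested genes with Psm names, Psmc3ip and Psme3ip1 included, deviated by -0.125, -0.036, 0.045 and -0.06 and by 0.034, 0.019, 0.097 and 0.025. Control array 3 lay above 3 of the Wt1 siRNA arrays, so the groups overlapped, and control array 1 was the lowest. For the beta ring alone control array 1 stood at -0.232 and control array 3 at 0.053. The groups were also apart for the 3 activators and inhibitor, in the other direction from COP9. Their mean deviated by -0.296 to -0.033 on control arrays and by 0.011 to 0.411 on Wt1 siRNA arrays. The mean over all tested genes stayed within -0.032 to 0.033. All these deviations are of the deposited signals. They were not computed with median centring, after which no COP9 gene passed by limma.

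**Figure D3:**
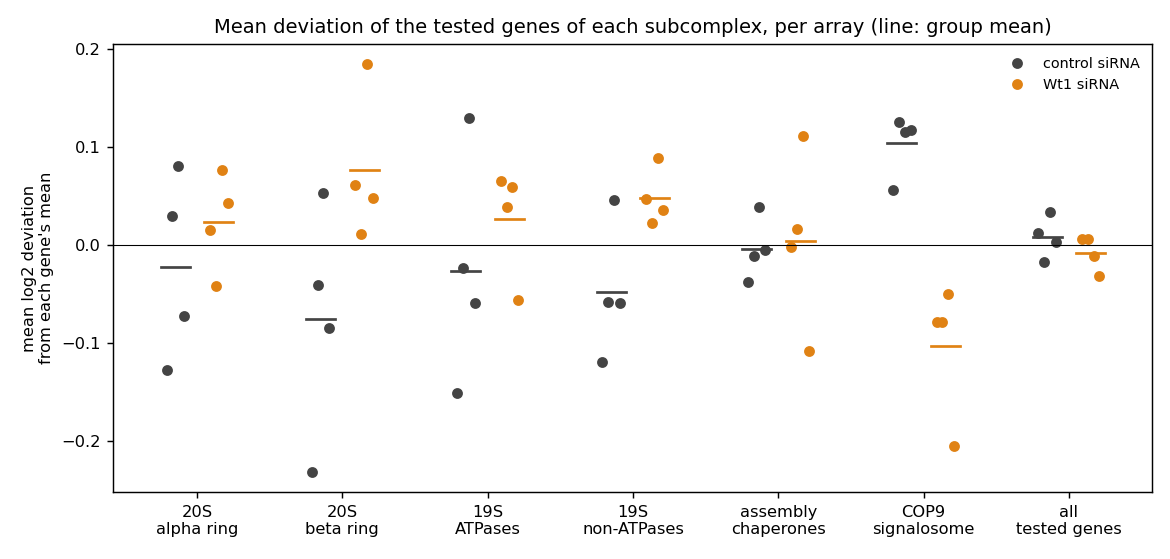
Mean log2 deviation (deposited signals) of the genes of a subcomplex from their mean over the 8 arrays, a point for each array, by group. All tested genes are drawn beside the subcomplexes, and the activators and inhibitor are left out. The COP9 points of the groups are apart, from 0.056 to 0.125 against -0.205 to -0.05, whereas those of the beta ring overlap through control array 3.

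The members were bright, which sets the precision. The lowest group mean of a tested member was 1725, and the background controls reached 227.2. Members had a median standard deviation within groups of 0.124 (log2) and 0.142 for all tested genes, and the median SE of a member's difference was 0.085.

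Probe sets of the same gene were compared, since the text so far rests on the brightest one. Of the 117 probe sets 90 were bright enough to test, and 15 were higher, 10 lower and 65 did not pass, where 23.1% of all 22518 tested probe sets were called. Of 26 genes with more than 1 tested probe set, 19 had the same call for all of them, 9 had differences of both signs and 0 were called in opposite directions by limma. Both Psma5 probe sets rose (0.31 and 0.30, limma adjusted p = 0.0175 and 0.023), and both Cops9 probe sets fell (-0.29 and -0.33, limma adjusted p = 0.02 and 0.0102). For Psmd13 the brightest rose (0.42 ± 0.072, limma adjusted p = 0.00173), and a dimmer one did not (0.021, limma adjusted p = 0.908).

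Psmc6 and Psma7 give different answers by probe set. The brightest Psmc6 probe set did not pass (-0.066, limma adjusted p = 0.581), while both dimmer ones fell, by 0.50 (limma adjusted p = 0.00155) and by 0.83 (limma adjusted p = 0.000739). Of the Psma7 probe sets the brightest did not pass (-0.19, limma adjusted p = 0.275) and the other rose (0.27, limma adjusted p = 0.0417). For Psme3 the brightest lay at 0.53 and the other at -0.37, and neither passed (limma adjusted p = 0.122 and 0.0693). When the log2 signals of all probe sets of a gene were averaged, 4 of the 12 rises and 6 of the 8 falls were kept. The kept rises were those of Psmb2, Psmb5, Psmd5 and Psmd8, each with a single probe set, so averaging could not change their values. Every rise of a gene with several probe sets was lost. Among the kept falls only Cops7a has several. The differences of the lost rises were 0.43 for Psma5, above that of its brightest probe set, 0.24 for Psmd7, 0.22 for Psme4 and Psmg4, 0.20 for Psmd2, 0.16 for Psmc2, 0.095 for Psmd13 and 0.033 for Psmd11, with limma adjusted p from 0.168 to 0.915. Those of the lost falls were -0.12 for Psma1 and -0.25 for Cops9 (limma adjusted p = 0.606 and 0.285). Psmc6 was then lower (-0.47, limma adjusted p = 0.000786). Averages include probe sets too dim to test, whose part in these losses was not tested.

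**Figure D4:**
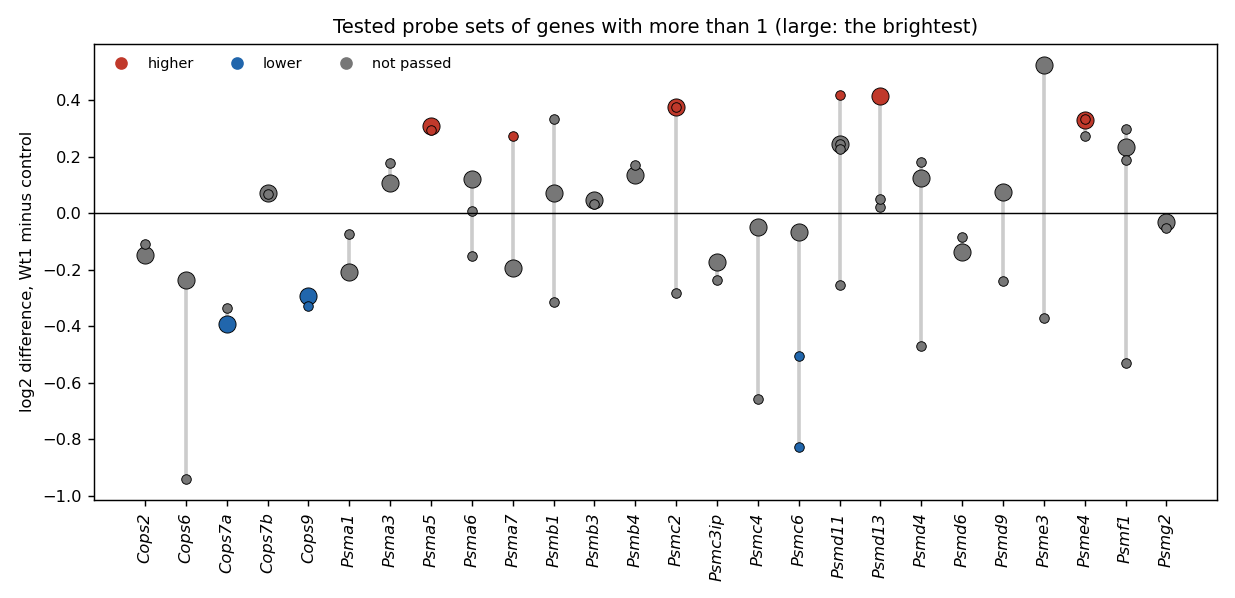
Log2 difference of every tested probe set (points, the brightest of each gene drawn large) for the genes with more than 1 tested probe set. The Psma5 and Cops9 points lie together, and those of Psmc6, Psma7 and Psme3 lie apart. Those of Psma7 and of Psme3 lie on both sides of 0.

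Upstream sequence was compared across the members. Windows of 300 bases, 250 before and 50 after each start, were found for 45 of the 54 genes (50 windows). CGGAAG occurred on either strand in 32 of them (64.0%), against 16.9% of all 32851 windows and 32.8% of the windows of tested genes. It was in 7 of 11 windows of genes that rose, 5 of 9 of those that fell and 19 of 29 of those that did not pass, and the difference between these shares was not tested. COP9 windows held it in 7 of 10 cases and windows of genes with Psm names, Psmc3ip and Psme3ip1 included, in 25 of 40. CCAAT on either strand was in 34.0% of member windows, 37.7% of the windows of tested genes and 37.4% of all windows. It was in 1 of 11 windows of genes that rose, 4 of 9 of those that fell and 11 of 29 of those that did not pass. GGGCGG on either strand was in 52.0% of member windows, 65.8% of the windows of tested genes and 35.7% of all windows. TGACNNNGC on either strand was in 7 windows (14.0%, against 14.4% of the windows of tested genes and 12.4% of all windows), those of Cops7a, Psmb5, Psmb6, Psmc6, Psmd12, Psmd9 and Psme4. GCGTGGGNG, a form of the site bound by WT1 and EGR1, was in 0.0% of member windows, 3.3% of the windows of tested genes and 1.9% of all windows on either strand. Matches to different motifs overlapped in 2 genes, CCAAT with CGGAAG in Psmc2 and GGGCGG with TGACNNNGC in Psmd9. A match describes letters and is neither a binding site nor a cause.

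Genes that work with these complexes were listed for comparison. Of 3 subunits with names outside the pattern, Gps1, the first COP9 subunit, fell to 82% of control (-0.29 ± 0.072, limma adjusted p = 0.00718). Sem1 of the lid (0.21 ± 0.085) and Pomp, a core assembly factor (0.11 ± 0.081), did not pass, with limma adjusted p of 0.0702 and 0.32. Counting Gps1, 4 of the 10 tested COP9 subunits fell, where 18.5% of all tested genes did. Of 4 inducible genes left out by the rule, the immunoproteasome subunit Psmb9 fell to 73.7% (-0.44 ± 0.067, limma adjusted p = 0.000234) and the activator subunit Psme1 rose to 124% (0.31 ± 0.078, limma adjusted p = 0.00714). Psmb8 and Psmb10 did not pass, at 0.11 ± 0.094 and -0.13 ± 0.081. With median centring Gps1 (limma adjusted p = 0.37) and Psmb9 (0.0734) no longer passed.

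Of 11 tested genes for proteasome-associated proteins and the factors that control subunit transcription, 2 rose and 3 fell, with a median of -0.041. Ngly1, the glycanase that activates the factor Nfe2l1, fell to 64.2% (-0.64 ± 0.12, limma adjusted p = 0.000786). Nfe2l1, which drives subunit genes when proteasome activity is low, lay at -0.028 ± 0.12 (limma adjusted p = 0.878). Ube3c, a ubiquitin ligase of the proteasome, fell (-0.47 ± 0.089, limma adjusted p = 0.00111), and so did the thioredoxin Txnl1 (-0.34 ± 0.068, limma adjusted p = 0.00159). The deubiquitinase Usp14 (0.28 ± 0.079, limma adjusted p = 0.0121) and the shuttle-like Zfand5 (0.24 ± 0.078, limma adjusted p = 0.0254) rose. Usp14 did not pass without control array 4 (adjusted p = 0.0502), and Zfand5 did not without control array 1 (0.0661), 2 (0.0554) or 4 (0.0772) or Wt1 siRNA array 1 (0.0557), 2 (0.0756) or 3 (0.0589). With median centring Ube3c (limma adjusted p = 0.0708), Txnl1 (0.222) and Zfand5 (0.0742) no longer passed. When probe sets were averaged, Ube3c (-0.54, limma adjusted p = 0.0926), Txnl1 (-0.58, 0.0884), Usp14 (0.079, 0.479) and Zfand5 (0.007, 0.982) did not pass.

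Of 11 tested genes for ubiquitin and substrate delivery 4 rose and 1 fell, with a median of 0.23. Vcp, the segregase that extracts substrates, rose to 123% (0.30 ± 0.10, limma adjusted p = 0.0238), and it did not pass without control array 1 (0.0539), control array 4 (0.0771) or Wt1 siRNA array 1 (0.0575). Its cofactors went in opposite directions. Nploc4 rose to 138% (0.46 ± 0.069, limma adjusted p = 0.000204) and Ufd1, with which it forms a heterodimer, fell to 59.3% (-0.75 ± 0.087, limma adjusted p = 2.5e-05). The shuttle Ubqln4 and the Vcp cofactor Ubxn1 rose (0.45 ± 0.10 and 0.32 ± 0.088, limma adjusted p = 0.00341 and 0.0118).

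Of 28 tested genes of cullin-RING ligases and the NEDD8 cycle, the substrates of the COP9 signalosome among them, 5 rose, 5 fell and 18 did not pass, with a median of 0.028. With median centring 2 were higher and 4 lower by limma, and with the ordinary two-sample test 2 were higher and 6 lower. Among the rises Cul7, a cullin, reached 131% of control (0.39 ± 0.093, limma adjusted p = 0.0054), and each of the other 4 lost its call in 5 to 13 of such settings. The NEDD8 ligase factors Dcun1d3 and Dcun1d2 fell to 55.8% and 58.8% (-0.84 ± 0.12 and -0.77 ± 0.13, limma adjusted p = 0.000101 and 0.00063), and the NEDD8-activating subunit Uba3 fell to 62.5% (-0.68 ± 0.10, limma adjusted p = 0.000262). The NEDD8 protease Senp8 (-0.52 ± 0.15, limma adjusted p = 0.0148) and the RING subunit Rnf7 (-0.48 ± 0.071, limma adjusted p = 0.000167) fell too, and Senp8 did not pass without control array 2 (adjusted p = 0.0523) or with median centring (0.089). Nedd8 itself did not pass (0.084 ± 0.12, limma adjusted p = 0.603). In eIF3, a translation factor built of subunits related to those of the lid, 1 of 11 rose and 1 fell, with a median of 0.078. Eif3m fell to 68.1% (limma adjusted p = 5.39e-05) and Eif3b rose (0.34 ± 0.085, limma adjusted p = 0.00633). When probe sets were averaged, Dcun1d2 (-0.27, limma adjusted p = 0.254) and Eif3m (-0.10, limma adjusted p = 0.789) did not pass.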

How the data were processed

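The 8 arrays of LB-22 total RNA were 4 with control siRNA and 4 with Wt1 siRNA, grouped by title and siRNA label. The authors deposited 1 linear intensity for each probe set, computed with MAS5 per the submitters' processing notes, in a release not given in the sources used here. This method subtracts mismatch from perfect match probes, so dim probe sets are the least precise, and precision is limited by how many arrays there are. The labels do not say whether the replicates are separate cultures. The p-values therefore reflect the spread between these samples alone, and that spread may be technical.

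Probe sets were named from the platform annotation with symbols updated through Entrez IDs. Each of 18193 genes was represented by its brightest probe set (mean log2 signal), and the brighter 9096 genes were tested with limma 3.58.1 (lmFit and eBayes with an intensity trend, R 4.3.3) on log2 values with no further normalization, two-sided, with Benjamini-Hochberg adjustment over all tested genes and a threshold of 0.05. Errors after ± are SE on the log2 scale, and percentages of control compare geometric means. The procedure was also run on simulated data with independent noise, in which few genes differed and no array was shifted as a whole. That run therefore does not test the effect of the scaling. Named genes were every member, Wt1, and up to 5 genes past the threshold from each list of partner genes, largest absolute difference first, and a few others that did not pass are named for their role. The members, lists and tests were chosen with earlier results of these data known. Alternatives were a replicate block, quantile normalization, median centring, 16 added before the logarithm, other filters on signal, the mean over probe sets, leaving out probe sets with suffix _s_at or _x_at, eBayes without trend, an ordinary two-sample test, a threshold of 0.01 and leaving out each array. The ordinary test on centred values was added after seeing the data. Upstream windows came from RefSeq. Python 3.11.15 and matplotlib 3.10.9 made the figures.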

Additional observations from a re-analysis of the deposited data

Results flagged for a closer look

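Among 106 groups of 4 arrays (the tested members and both siRNA groups, with Wt1 beside them), 7 held an array far from the others, where the gap to the nearest array exceeded Dixon's 95% critical share of the group's range. Chance gives about 1 such group in 20. With Wt1 siRNA, array 4 was low for 4 members. These were Cops3 (9187 against 11094.8 to 11235.8), Cops4 (2585.1 against 3407.6 to 3582.8), Psmc1 (7198.4 against 9609.8 to 9998) and Psmc6 (12828 against 15173.4 to 15415.2). Array 3 of the same group was high for Cops2 (9303 against 8273.9 to 8363.7). With control siRNA, array 3 was high for Psmc4 (13294.8 against 9868.1 to 10032.2) and for Psmd2 (31323.5 against 23604.1 to 24295.4). Of these 7 genes Cops4 and Psmd2 passed the test with all arrays.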

How the results depend on the processing

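The 12 higher members became 4 with the mean over probe sets and 7 at a threshold of 0.01, and the 8 lower members became 0 with median centring and 4 at 0.01. The 3 lower COP9 genes became 5 with quantile normalization and 0 with centring, by limma, with 1 lower at an unadjusted p under 0.05 and 1 by the ordinary two-sample test on centred values. That test on centred values, added after seeing the data, gave 4 higher and 1 lower member. The members' median difference went from 0.058 to 0.166 with centring, and the lower probe sets from 10 to 1. Leaving out 1 array in turn gave 10 to 13 higher members, 7 to 9 lower members, 3 to 4 lower COP9 genes, a median of 0.014 (without Wt1 siRNA array 3) to 0.073 and a Wt1 difference of -2.371 to -2.191. With the replicate number as a block 13 members were higher (Psme3 was added, limma adjusted p = 0.0355) and 8 lower, and no called member was lost. Same-numbered arrays did not deviate together (correlations of 0.084, -0.077, 0.083 and 0.039), so the numbers were not taken as pairs. Over single genes and all alternatives, 907 of 981 member values kept their side of the threshold, 59 no longer passed and 15 newly passed. The sign differed in 29 values of 13 genes, none of them called as deposited. Called members lost elsewhere were Psmd2 and Psmd8 with quantile normalization, Psma1, Psmd2 and Psmd11 with no filter on signal or no trend, and Psmd2, Psmd3, Psmd11 and Cops4 with the ordinary two-sample test. Of 38 called genes of the other lists 27 kept their call with centring, 37 with quantile normalization, 27 with the mean over probe sets and 29 whichever array was left out. Wt1 had no value without probe sets of suffix _s_at, since its own is of that kind. The causes of these shifts were not tested. The limits are 4 arrays a group and MAS5 signal without detection calls.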
